A study of Mus musculus with 16 samples.

Results

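The genes described here mark the cells of blood vessels in the mouse left ventricle: endothelial cells, which line the vessels, and the mural cells around them, which are pericytes on capillaries and smooth muscle cells on arteries. They were taken from a list of 37 mouse symbols, and all 37 were matched to an Ensembl gene ID in a count table of 57186 IDs. The list held 15 genes of endothelial identity and junctions, 5 of capillary endothelium, 4 of arterial, venous or fenestrated endothelium, 7 of pericytes and 6 of vascular smooth muscle. Of these, 36 passed the filter on low counts and were tested among 15206 genes. The exception was Ackr1 (a chemokine-binding receptor of venules), which stayed between 0.0664 and 0.764 CPM (the CPM unit of edgeR, counts scaled to a common library total).

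The samples were left ventricles of C57/BL6N mice, 4 biological replicates in each of 4 groups. Mice labelled WT had undergone a sham operation or transverse aortic constriction (TAC), which narrows the aorta and loads the ventricle with pressure. Mice labelled cKO-TFEB, written cKO below, lacked Tfeb in cardiomyocytes and had undergone the same operations. The TFEB protein switches on genes of lysosomes and autophagy. The knockout was directed at cardiomyocytes, so the vessel cells themselves were not its target. The Cre line, the genotype of the WT mice beyond that label, age, sex and time after surgery are not given in the labels.

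Capillary endothelial cells of the heart take up fatty acids and pass them to cardiomyocytes. They are held together by VE-cadherin and PECAM1 at their junctions, and ETS and SOX family transcription factors maintain their identity. Pericytes depend on PDGF signalling through PDGFRB, whereas smooth muscle cells carry a contractile apparatus whose genes are known targets of SRF and myocardin.

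Library totals ran from 12946878 to 16347388 counts. Tfeb measured 30.9 to 40.1 CPM in WT sham, 20.6 to 39.9 in WT TAC, 9.11 to 13.0 in cKO sham and 9.36 to 14.7 in cKO TAC, lower in every cKO library than in any WT library. Whole ventricle was sequenced, so a lower value can mean fewer cells of a type or less RNA in each cell, and these cannot be told apart. Other cells changed with TAC too. Beside the counts below, 9.7% of all tested genes rose and 6.14% fell in WT, and 14.2% rose and 12.4% fell in cKO. All 7 genes of a proliferation list rose in both genotypes, and their summed level went from 10.4 to 16.3 CPM in WT sham to 66.1 to 135 in WT TAC, and from 11.4 to 21.4 in cKO sham to 85.1 to 122 in cKO TAC. Of 10 fibroblast markers, 6 rose in WT and 7 in cKO, where 1 fell. Of 10 cardiomyocyte markers, 2 fell in WT and 6 in cKO, and their sum was 62258 to 74863 CPM in WT sham, 52849 to 63081 in WT TAC, 60353 to 70624 in cKO sham and 38747 to 56206 in cKO TAC. Of 10 tested macrophage and monocyte markers, 7 rose in WT and 8 in cKO. The sum of that list was 233 to 374 CPM in WT sham, 423 to 567 in WT TAC, 317 to 608 in cKO sham and 562 to 776 in cKO TAC. All 10 had a higher estimate in cKO than in WT under both operations, with medians of 0.53 under sham and 0.44 under TAC, although 0 passed in either (edgeR, 7 and 4 unadjusted). Of the fibroblast markers 8 of 10 were higher in cKO under each operation, with medians of 0.29 under sham (0 passed) and 0.45 under TAC (1 passed). Of the cardiomyocyte markers 7 of 10 were lower in cKO under sham (median -0.18, 0 passed) and 9 of 10 under TAC (median -0.34, 1 passed). Among all genes, 1.17% passed in cKO against WT under sham and 1.78% under TAC. At an unadjusted p under 0.05 (edgeR) there were 2284 and 2643 of 15206. The part of these marker lists in the results below was not tested. Atrial transcripts (Sln, Myl7 and Myl4) stood apart in WT sham replicate 3, at 2390 CPM, and WT TAC replicate 4, at 796 CPM.

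The levels of the genes spanned a wide range when CPM were divided by annotated exon length. In WT sham the highest were Aqp1 (a water channel) at 152 CPM per kb, Fabp4 (a fatty acid carrier) at 102 and Rgs5 (a regulator of G protein signalling used as a pericyte marker) at 95.4. These 3 genes held the first 3 ranks in all 4 groups. Smtn (smoothelin, an actin-associated protein of contractile smooth muscle) came next at 67.0, far from Myh11 (smooth muscle myosin) at 6.84 and Cnn1 (calponin, which binds actin) at 1.32. Within the smooth muscle genes the levels thus did not form a common tier, and which cells gave the Smtn counts was not tested. Tagln (transgelin), another actin-binding protein, was lowest at 0.352. Its value is uncertain, since 67.9% of its annotated exon bases are shared with Pcsk7 and Gm48529 on the opposite strand and the strand setting of the counting is not given. The same reservation applies to Nos3 at 32.3%, Sox17 at 16.8% and Smtn at 16.3% of exon bases. Egfl7 shared 337 of its 3581 exon bases with other genes on the same strand and 122 on the opposite strand. Ackr1 shared 361 of 1405, all on the same strand. How the counting treated reads in shared bases is not given in the sources used here. Among the genes of endothelial identity and junctions, Eng (a TGF-beta co-receptor) at 59.3 and Cdh5 (VE-cadherin) at 52.7 CPM per kb were highest. Emcn (endomucin, a surface mucin of capillaries and veins) was lowest of this class at 7.55.

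**Figure D1:**
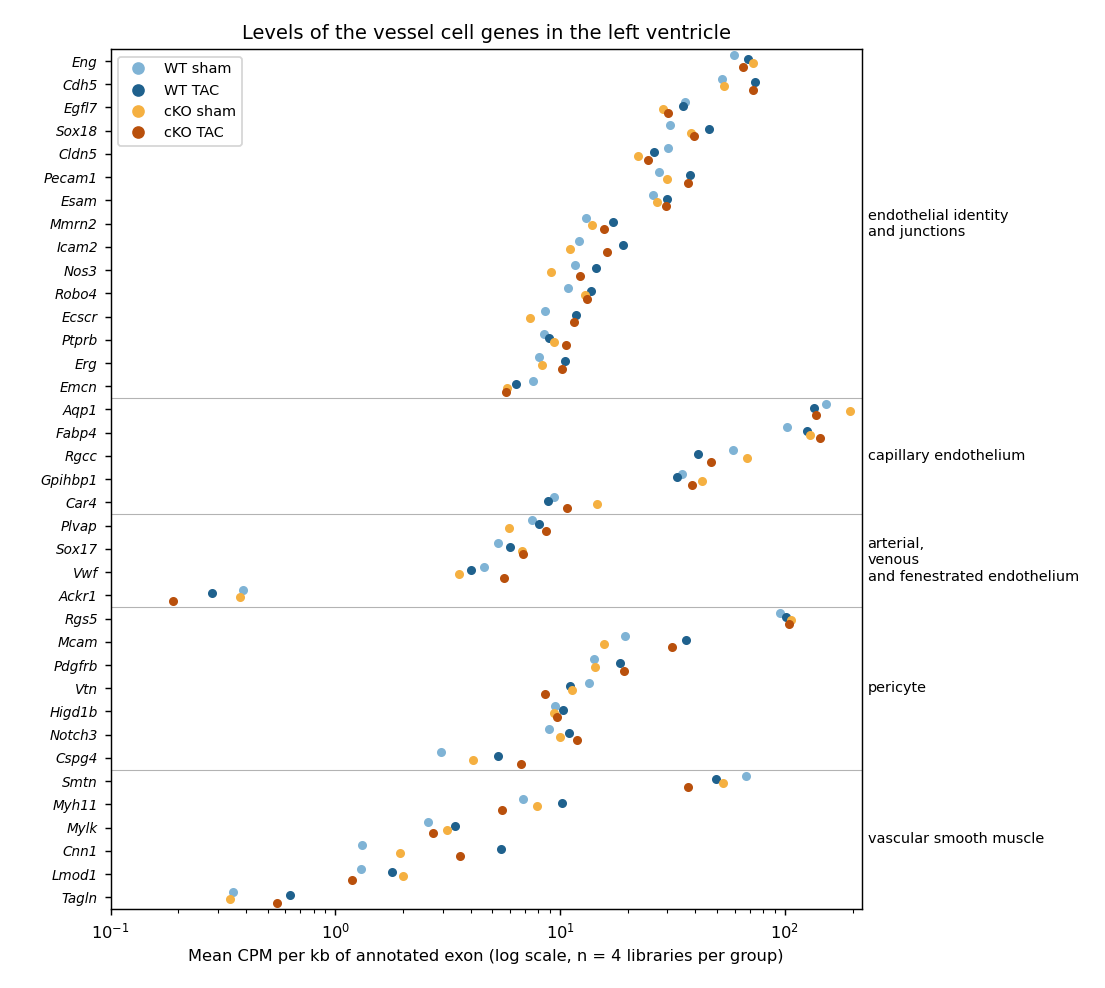
Mean level of each of the 37 genes per kb of annotated exon (horizontal log axis, CPM per kb), ordered within each class, with 1 point for each group of 4 libraries. Aqp1, Fabp4 and Rgs5 lie furthest right, and Tagln and Ackr1 furthest left.

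Promoters are shown for Robo4, Mcam and Cnn1, a member each of the endothelial, pericyte and smooth muscle classes whose counts rose with TAC in WT. Each window is the 250 bases before the RefSeq start in GRCm38.p6, read 5′ to 3′ on the plus strand, and capitals mark the ETS core GGAA on either strand. Robo4 lies at chr9:37401722-37401971 with 3 such cores, Mcam at chr9:44134408-44134657 with 1, and Cnn1 at chr9:22099003-22099252 with 3.
Robo4: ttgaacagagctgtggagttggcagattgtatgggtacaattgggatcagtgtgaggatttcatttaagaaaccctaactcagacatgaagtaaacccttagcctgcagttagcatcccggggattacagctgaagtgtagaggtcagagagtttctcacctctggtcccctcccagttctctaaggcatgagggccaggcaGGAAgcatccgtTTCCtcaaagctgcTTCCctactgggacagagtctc
Mcam: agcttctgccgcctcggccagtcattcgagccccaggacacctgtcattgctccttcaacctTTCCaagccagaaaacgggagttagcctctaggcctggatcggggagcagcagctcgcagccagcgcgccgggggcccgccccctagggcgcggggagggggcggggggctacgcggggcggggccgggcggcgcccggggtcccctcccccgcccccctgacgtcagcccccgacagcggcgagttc
Cnn1: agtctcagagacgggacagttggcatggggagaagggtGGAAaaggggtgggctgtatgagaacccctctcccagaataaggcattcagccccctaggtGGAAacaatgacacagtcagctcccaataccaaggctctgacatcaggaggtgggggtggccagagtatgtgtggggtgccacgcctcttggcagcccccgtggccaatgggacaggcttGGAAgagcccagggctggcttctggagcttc

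Any member windows on a chromosome that was left out were not read, although the shares over all windows include that chromosome. Windows were taken for 19 of the 37 genes, 23 windows in all. GGAA on either strand was found in 20 of them (87%), against 93.4% of 32851 windows of the same length. The CArG box, the SRF motif, was in 0 of 23 against 1.47% of all windows. The E-box CACGTG, which reads the same on both strands, was in 0 of 23 against 6.02%. These matches describe the printed letters and are no evidence of binding.

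Pressure overload in WT ventricles raised 12 of the 36 genes and lowered 1 (edgeR quasi-likelihood test, adjusted p under 0.05 over all genes). Those that rose were Pecam1, Cdh5, Icam2, Robo4, Mmrn2, Ecscr, Erg, Sox18, Pdgfrb, Cspg4, Mcam and Cnn1, and the one that fell was Smtn. That is 33.3% higher and 2.78% lower, beside 9.7% higher and 6.14% lower among all tested genes. The members were chosen with earlier results of these data known. The shares here and in the classes below therefore cannot test an excess over all genes. In 11 of the 36 (30.6%) every TAC library lay above every sham library, beside 11% of all genes, and in 0 (beside 8.42%) did every TAC library lie below. The median log2 fold change was 0.29 over the 36 genes and -0.015 over all genes. Without WT TAC replicate 1 the count of higher members was 7 rather than 12, and that over all genes was 897 rather than 1475. The same operation in cKO ventricles raised 10 of the 36 (27.8%, beside 14.2% of all genes) and lowered 2 (5.56%, beside 12.4%). Every TAC library lay above every sham library in 9 (25.0%, beside 15.5%) and below in 2 (5.56%, beside 13.8%). Both genotypes had 8 higher genes in common, 66.7% of the WT list and 80.0% of the cKO list, and Smtn was lower in both. The same overlap over all genes is not given here, so these shares do not set the members apart from other genes.

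**Figure D2:**
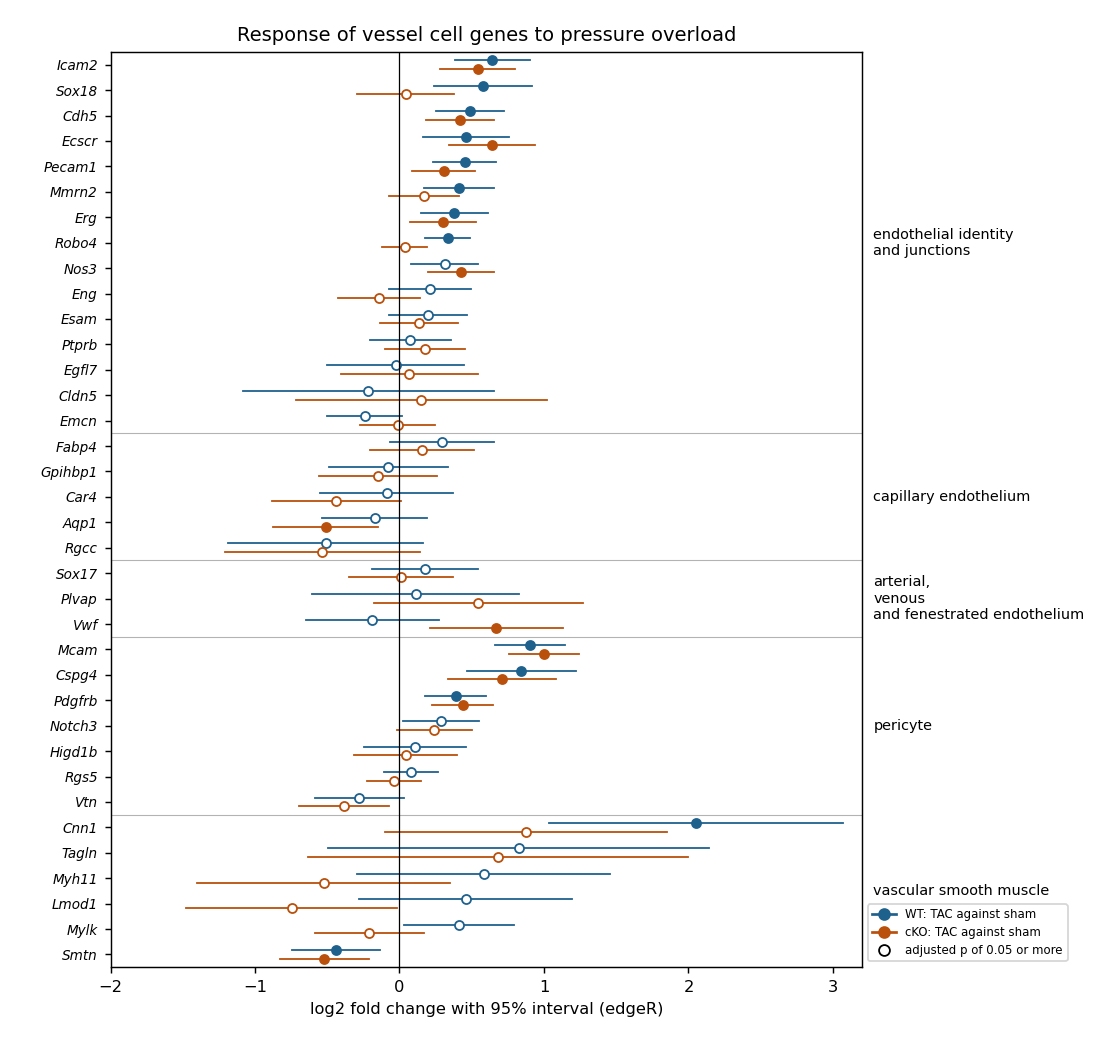
Log2 fold change of TAC against sham for each of the 36 tested genes in WT (blue) and cKO (orange), with 95% intervals from edgeR over 4 libraries a group. Filled points have an adjusted p under 0.05. Mcam, Cspg4 and Pdgfrb and a run of identity and junction genes lie to the right in both genotypes. Smtn lies to the left in both.

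Among the genes of endothelial identity and junctions, 8 of 15 rose in WT, beside 9.7% of all genes, and 6 of 15 in cKO, beside 14.2%. None fell in either genotype, beside 6.14% of all genes in WT and 12.4% in cKO. The class median log2 fold change was 0.33 in WT and 0.17 in cKO. Icam2, an adhesion molecule of endothelial cells, was the most strongly changed of them in WT. It measured 29.9, 19.9, 21.2 and 21.4 CPM in WT sham and 39.6, 39.8, 33.4 and 31.5 in WT TAC. In cKO it measured 23.1, 21.6, 20.9 and 18.5 under sham and 32.6, 27.5, 30.7 and 31.7 under TAC. All TAC libraries lay above all sham libraries of their genotype. The rise was 0.64 ± 0.12 (log2, SE, n = 4, edgeR adjusted p = 0.00212) in WT and 0.54 ± 0.12 (adjusted p = 0.00383) in cKO.

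The junction genes Pecam1 and Cdh5 moved by less. Pecam1, an adhesion receptor at endothelial contacts, measured 164, 172, 183 and 169 CPM in WT sham and 245, 245, 229 and 222 in WT TAC. In cKO it was 206, 197, 142 and 198 under sham and 259, 230, 210 and 219 under TAC. The groups did not overlap in either genotype, although cKO sham replicate 3 sat far below its group. The rise was 0.45 ± 0.10 in WT (edgeR adjusted p = 0.00746) and 0.31 ± 0.10 in cKO (adjusted p = 0.0367), and the cKO call was lost in 7 of 26 alternatives. Leaving out cKO sham replicate 3 gave 0.20 for Pecam1 in cKO (adjusted p = 0.120), and without cKO TAC replicate 1 it was 0.24 (adjusted p = 0.142). The call was also lost without WT TAC replicate 2 and without cKO TAC replicate 2 or 4.

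Cdh5 levels in CPM were 193, 213, 213 and 267 in WT sham and 353, 337, 293 and 258 in WT TAC, so that WT sham replicate 4 passed WT TAC replicate 4. In cKO the sham libraries gave 233, 234, 212 and 224 and the TAC libraries 337, 314, 277 and 278, with no overlap. Cdh5 rose by 0.49 ± 0.11 in WT (edgeR adjusted p = 0.00741) and 0.42 ± 0.11 in cKO (adjusted p = 0.0106).

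Ecscr, an endothelial surface protein involved in migration, measured 20.1, 13.4, 12.9 and 13.4 CPM in WT sham and 23.0, 21.4, 18.8 and 19.1 in WT TAC. Its cKO values were 11.4, 15.9, 13.1 and 11.3 under sham and 21.9, 19.0, 18.7 and 20.8 under TAC. The cKO groups were fully separate, whereas WT sham replicate 1 reached into the WT TAC range. Ecscr rose by 0.46 ± 0.14 in WT (edgeR adjusted p = 0.0357) and by 0.64 ± 0.14 in cKO (adjusted p = 0.00335). The WT call was lost in 7 of 26 alternatives, among them leaving out WT sham replicate 2, 3 or 4 or WT TAC replicate 1 or 2.

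Nos3, the endothelial nitric oxide synthase, gave 54.5, 49.1, 40.3 and 48.7 CPM in WT sham and 59.5, 61.8, 56.5 and 61.1 in WT TAC. In cKO it gave 36.0, 43.2, 41.7 and 29.8 under sham and 54.8, 47.4, 47.6 and 52.4 under TAC. No TAC library overlapped a sham library of its genotype. The cKO rise of 0.43 ± 0.11 passed (edgeR adjusted p = 0.00848). The WT difference was 0.31 with a 95% interval of 0.08 to 0.54 (adjusted p = 0.0598) and did not pass. It passed with library totals only and without WT sham replicate 1 or cKO sham replicate 4. The difference between the responses was 0.11 with an interval of -0.21 to 0.44 (unadjusted p = 0.472 from the edgeR interaction term).

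Erg is an ETS family transcription factor of endothelial cells. It measured 23.4, 29.8, 26.3 and 32.0 CPM in WT sham and 36.2, 35.7, 39.7 and 33.7 in WT TAC. The cKO libraries gave 31.7, 28.2, 25.0 and 30.1 under sham and 40.8, 32.7, 32.3 and 35.7 under TAC. TAC was above sham throughout, by 0.38 ± 0.11 in WT (edgeR adjusted p = 0.0242) and 0.30 ± 0.11 in cKO (adjusted p = 0.0480). Both calls lay close to the threshold: that of Erg in WT was lost in 5 of 26 alternatives and that in cKO in 16. Single libraries whose omission ended the WT call were WT sham replicates 1 and 3 and WT TAC replicates 1 and 3. Without cKO TAC replicate 1 the cKO estimate for Erg was 0.22 (adjusted p = 0.192). The cKO call was also lost without WT sham replicate 2 or 3, any of the WT TAC libraries, cKO sham replicate 2, 3 or 4, or cKO TAC replicate 2 or 4.

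Robo4, Mmrn2 and Sox18 rose in WT and did not pass in cKO. Robo4, a guidance receptor that stabilises vessels and whose promoter is printed above, measured 58.1, 59.8, 55.0 and 57.5 CPM in WT sham and 77.8, 71.6, 71.4 and 69.6 in WT TAC. Its cKO values were 69.9, 65.6, 63.6 and 73.6 under sham and 64.9, 73.9, 73.3 and 67.5 under TAC. WT sham thus lay below every other library, and the other 3 groups overlapped. The WT rise was 0.33 ± 0.07 (edgeR adjusted p = 0.00609), and the cKO difference was 0.04 with an interval of -0.12 to 0.19 (adjusted p = 0.772). With library totals only Robo4 passed in cKO at 0.23 (adjusted p = 0.039). The interaction was -0.30 ± 0.11, with an unadjusted p of 0.0108 and an adjusted p of 0.946.

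Sox18, a SOX family factor of endothelial cells, measured 39.7, 65.0, 59.9 and 35.6 CPM in WT sham and 79.6, 71.4, 80.7 and 67.4 in WT TAC. In cKO it measured 48.4, 68.3, 70.9 and 60.3 under sham and 68.4, 63.4, 64.7 and 58.7 under TAC. The WT groups were separate, with 2 low sham libraries, and the cKO groups overlapped. Sox18 rose by 0.58 ± 0.16 in WT (edgeR adjusted p = 0.0218), while the cKO difference was 0.04 with an interval of -0.29 to 0.38 (adjusted p = 0.878). Its interaction was -0.54 ± 0.23 (unadjusted p = 0.0299, adjusted p = 0.946). The WT call was lost without WT sham replicate 1 or 4 and without WT TAC replicate 1 or 3.

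Mmrn2 (multimerin 2, a matrix protein of endothelium) measured 44.5, 49.5, 54.2 and 58.3 CPM in WT sham and 72.3, 70.4, 63.9 and 67.9 in WT TAC. The cKO libraries gave 60.7, 67.3, 42.7 and 50.7 under sham and 61.9, 63.6, 63.7 and 59.8 under TAC. Only the WT groups were separate for this gene. The WT rise of 0.41 ± 0.11 passed (edgeR adjusted p = 0.0216), and the cKO difference of 0.17 (interval -0.07 to 0.41, adjusted p = 0.297) did not, except with library totals only (adjusted p = 0.0431). The interaction for Mmrn2 was -0.24 (interval -0.58 to 0.10, unadjusted p = 0.153). The WT call was lost without WT sham replicate 1 or 2 or WT TAC replicate 1.

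The other genes of endothelial identity and junctions did not pass with TAC in either genotype. These were Emcn, Egfl7 (a secreted endothelial factor), Esam (an adhesion molecule), Cldn5 (a tight junction claudin), Eng and Ptprb (the phosphatase VE-PTP). Their log2 differences ran from -0.24 for Emcn to 0.21 for Eng in WT and from -0.14 for Eng to 0.18 for Ptprb in cKO. Intervals were wide for Cldn5, which ran from 19.3 to 84.9 CPM within WT sham, and there the WT interval was -1.08 to 0.65. Emcn passed in WT without WT sham replicate 2 (adjusted p = 0.0379).

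**Figure D3:**
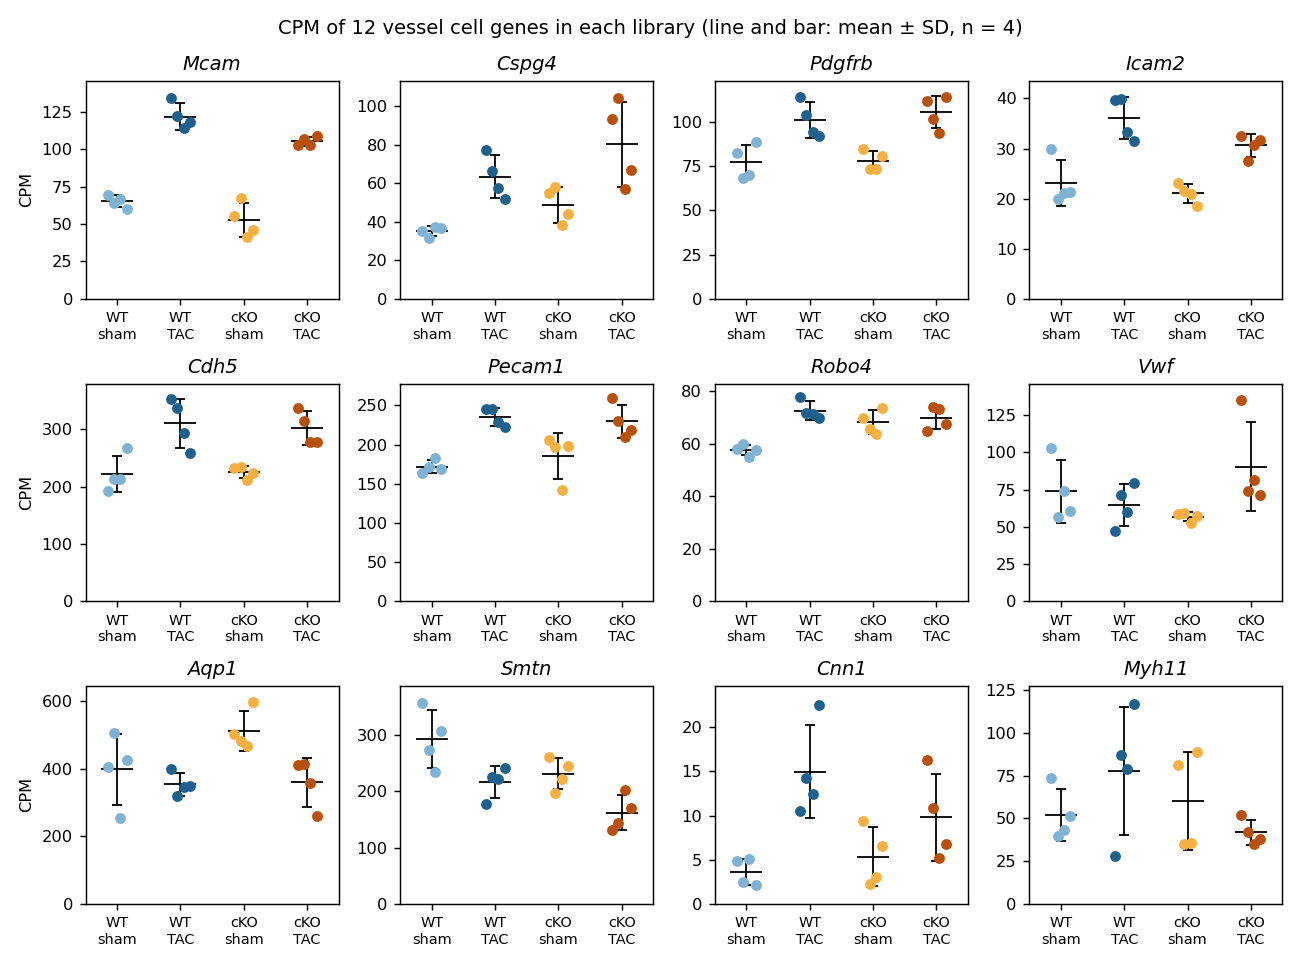
Level of 12 of the genes in each library (vertical axis, CPM from 0) by group, with the mean and SD of 4 libraries. For Mcam, Pdgfrb, Icam2 and Pecam1 the TAC points lie above the sham points in both genotypes, and Myh11 and Cnn1 show wide spread within groups.

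Of the 5 capillary genes, 0 passed in either direction with TAC in WT (edgeR, also 0 at an unadjusted p under 0.05), beside 9.7% higher and 6.14% lower among all genes. In cKO 1 of 5 fell, beside 12.4% of all genes. The class median was -0.088 in WT, which became 0.041 when libraries were scaled by their totals only, and -0.44 in cKO. A further 17 capillary genes had medians of 0.30 in WT and 0.35 in cKO. That list also holds genes of tip cells and matrix, such as Unc5b, Col4a1 and Col4a2, so it differs in kind from the 5 members. Aqp1 measured 407, 505, 255 and 426 CPM in WT sham and 400, 320, 346 and 350 in WT TAC, where the groups overlapped. In cKO it measured 503, 482, 468 and 598 under sham and 411, 413, 358 and 259 under TAC, where every TAC library was lower. Aqp1 fell by 0.51 ± 0.17 in cKO (log2, edgeR adjusted p = 0.0372). The WT difference was -0.17 with an interval of -0.53 to 0.19 (adjusted p = 0.537), and the interaction of -0.34 had an interval of -0.85 to 0.17. The cKO call was lost in 7 of 26 alternatives, including scaling by library totals only (-0.32, adjusted p = 0.155). It was also lost without cKO sham replicate 1, 3 or 4 or cKO TAC replicate 3 or 4.

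Of the remaining capillary genes, Fabp4 ranged from 430 to 502 CPM in WT sham, 419 to 642 in WT TAC, 503 to 664 in cKO sham and 490 to 925 in cKO TAC. Its TAC differences were 0.30 in WT and 0.15 in cKO, and neither passed. Adipocytes also express Fabp4, and a list of 9 adipocyte genes summed to between 20.5 and 73.6 CPM in all libraries, with Ucp1 at 0 throughout. Gpihbp1, which carries lipoprotein lipase across capillary endothelium, differed by -0.08 in WT and -0.15 in cKO. Rgcc, a cell cycle regulator enriched in capillaries, differed by -0.51 in WT (interval -1.19 to 0.17) and -0.53 in cKO (interval -1.21 to 0.14). Car4, a surface carbonic anhydrase, differed by -0.09 in WT and -0.44 in cKO (adjusted p = 0.140). Without cKO TAC replicate 1, which at 31.2 CPM was far above the 15.9 to 20.9 of the other TAC libraries, Car4 passed in cKO at -0.69 (adjusted p = 0.0194).

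The gap between the identity and junction class and the capillary class can be read within each library. Each gene's log2 CPM was centred on its mean over the 16 libraries and averaged within a class. The identity and junction score minus the capillary score was -0.685 to -0.262 in cKO sham and -0.170 to 0.465 in cKO TAC, without overlap. It was -0.438 to 0.381 in WT sham and 0.217 to 0.467 in WT TAC, where WT sham replicate 3 reached into the TAC range. This replicate also had the most atrial transcripts and the lowest capillary score, at -0.572, and the part of the one in the other was not tested.

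**Figure D4:**
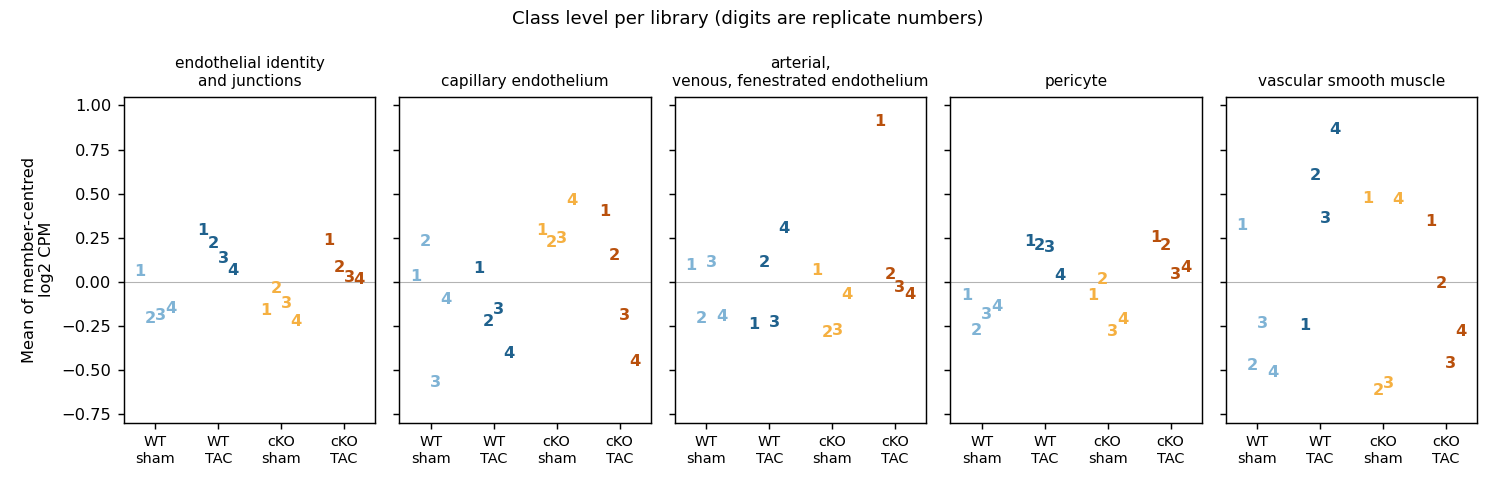
Mean of the centred log2 CPM of each class (vertical axis) in every library, with digits for replicate numbers and 4 libraries a group. The identity and junction class and the pericyte class sit higher under TAC. The capillary class lies between 0.22 and 0.46 in cKO sham, and the smooth muscle class is spread widely in each group.

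For arterial, venous and fenestrated endothelium, 3 of 4 genes were tested. None passed with TAC in WT, beside 9.7% higher and 6.14% lower among all genes. In cKO 1 of 3 rose, beside 14.2%, and none fell, beside 12.4%. Vwf, the von Willebrand clotting factor of larger vessels, measured 103, 56.9, 74.0 and 60.9 CPM in WT sham and 47.5, 71.5, 59.9 and 79.7 in WT TAC. In cKO it measured 58.5, 59.5, 52.7 and 57.1 under sham and 135, 74.0, 81.7 and 71.4 under TAC. The cKO groups were separate, with cKO TAC replicate 1 far above the rest, and the WT groups overlapped. Vwf rose by 0.67 ± 0.22 in cKO (edgeR adjusted p = 0.0326). In WT the difference was -0.19 with an interval of -0.65 to 0.27 (adjusted p = 0.590), and the interaction was 0.86 ± 0.31 (unadjusted p = 0.0131, adjusted p = 0.946). Without cKO TAC replicate 1 the cKO estimate was 0.40 (adjusted p = 0.132), and the call was also lost when any single cKO sham library was left out. Plvap, the diaphragm protein of fenestrated endothelium, was likewise highest in cKO TAC replicate 1, at 30.2 CPM against 11.7 to 13.6 in the other 3. That library also had the highest fibroblast sum and the lowest cardiomyocyte sum of all, 6330 and 38747 CPM, and their part in its Vwf and Plvap values was not tested. Sox17, an arterial transcription factor, ranged from 20.7 to 46.3 CPM over all libraries and did not pass.

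Of the 7 pericyte genes, 3 rose in both genotypes, beside 9.7% of all genes in WT and 14.2% in cKO. None fell, beside 6.14% and 12.4%. The class median was 0.29 in WT and 0.24 in cKO, whereas that of 14 further pericyte genes was -0.25 and -0.20. Mcam (CD146, an adhesion molecule of pericytes that endothelial cells also carry) had the smallest adjusted p of all 36 genes. It measured 69.4, 64.0, 66.9 and 60.2 CPM in WT sham and 134, 122, 114 and 118 in WT TAC. The cKO libraries gave 55.5, 67.5, 41.5 and 46.2 under sham and 103, 107, 103 and 109 under TAC. TAC and sham were far apart in both genotypes. Mcam was 1.87-fold higher in WT (0.90 ± 0.11 on the log2 scale, edgeR adjusted p = 6.98e-05) and 2.00-fold higher in cKO (1.00 ± 0.11, adjusted p = 2.51e-05).

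Cspg4 (NG2, a proteoglycan of pericytes) measured 35.4, 31.7, 37.2 and 36.7 CPM in WT sham and 77.4, 66.2, 57.6 and 51.8 in WT TAC. In cKO it measured 55.0, 58.2, 38.2 and 44.1 under sham and 93.5, 104, 56.8 and 66.7 under TAC. The WT groups were separate, and in cKO one sham library exceeded the lowest TAC library. Cspg4 was 1.79-fold higher in WT (0.84 ± 0.18, edgeR adjusted p = 0.00499) and 1.64-fold higher in cKO (0.71 ± 0.18, adjusted p = 0.00734).

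Pdgfrb, the receptor for PDGF-B, which fibroblasts also express, measured 82.6, 68.4, 70.1 and 88.5 CPM in WT sham and 114, 104, 94.3 and 92.4 in WT TAC. Its cKO values were 84.7, 73.4, 73.3 and 80.9 under sham and 112, 102, 94.1 and 114 under TAC. The groups were separate in both genotypes. Pdgfrb rose by 0.39 ± 0.10 in WT (edgeR adjusted p = 0.0147) and 0.44 ± 0.10 in cKO (adjusted p = 0.00425). The WT call was lost without WT TAC replicate 1 (adjusted p = 0.0699).

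Rgs5, by far the most abundant pericyte gene per length, stayed between 417 and 526 CPM in 16 libraries. Its TAC difference was 0.08 in WT (interval -0.11 to 0.27) and -0.04 in cKO (interval -0.23 to 0.15), the narrowest intervals of the class. Higd1b, a pericyte-enriched mitochondrial protein, differed by 0.11 and 0.04 with intervals of -0.25 to 0.46 and -0.31 to 0.40. Notch3, the Notch receptor of mural cells, differed by 0.29 (adjusted p = 0.126) and 0.24 (adjusted p = 0.164), and with library totals only the cKO value passed at 0.44 (adjusted p = 0.0232). Vtn, the matrix protein vitronectin, was lower by point estimate, at -0.28 in WT (adjusted p = 0.204) and -0.39 in cKO (adjusted p = 0.0619). Every cKO TAC value of Vtn, 18.6, 14.2, 20.5 and 16.5 CPM, lay below the cKO sham values of 21.6, 23.3, 24.9 and 21.4. Vtn passed in 6 of 26 alternatives, with the adjusted p as low as 0.0258, among them leaving out WT sham replicate 1, WT TAC replicate 1 or cKO TAC replicate 3.

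The smooth muscle genes were the most uneven class. In WT, Cnn1 rose and Smtn fell, 1 of 6 each way, beside 9.7% higher and 6.14% lower among all genes. In cKO Smtn fell, 1 of 6 beside 12.4%, and none rose, beside 14.2%. The class median was 0.52 in WT and -0.36 in cKO. Cnn1 measured 4.81, 2.46, 5.02 and 2.16 CPM in WT sham and 10.5, 14.3, 12.5 and 22.5 in WT TAC. In cKO it measured 9.44, 2.20, 3.05 and 6.56 under sham and 16.3, 10.9, 5.18 and 6.76 under TAC. The WT groups were separate and the cKO groups overlapped. Cnn1 was 4.14-fold higher in WT (2.05 ± 0.48 on the log2 scale, edgeR adjusted p = 0.0105). In cKO the difference was 0.88 with an interval of -0.10 to 1.85 (adjusted p = 0.175), and the interaction of -1.17 had an interval of -2.58 to 0.23.

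Smtn measured 358, 274, 235 and 307 CPM in WT sham and 177, 226, 222 and 242 in WT TAC, with 1 TAC library above the lowest sham library. The cKO libraries gave 262, 197, 223 and 246 under sham and 132, 143, 202 and 170 under TAC, again with a small overlap. Smtn fell by 0.44 ± 0.15 in WT (log2, edgeR adjusted p = 0.0476) and fell by 0.52 ± 0.15 in cKO (adjusted p = 0.0138). The WT call for Smtn was lost in 15 of 26 alternatives, with adjusted p-values from 0.0203 to 0.155, and the cKO call in 2, library totals only and without cKO TAC replicate 1. The libraries whose omission ended the WT call were WT sham replicates 1, 2 and 4, WT TAC replicates 1, 2 and 3, cKO sham replicates 1, 3 and 4, and cKO TAC replicates 2 and 4. Smtn thus moved opposite to Cnn1 in WT. Whether its counts came from smooth muscle cells alone was not tested.

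Myh11 varied widely within groups. It measured 73.6, 39.7, 43.0 and 51.6 CPM in WT sham, 27.7, 87.3, 78.8 and 117 in WT TAC, 81.0, 35.2, 35.6 and 88.9 in cKO sham and 52.2, 41.9, 35.1 and 38.2 in cKO TAC. WT TAC replicate 1 was the lowest of all 16 libraries and WT TAC replicate 4 the highest. The TAC difference was 0.58 in WT (interval -0.29 to 1.46) and -0.52 in cKO (interval -1.40 to 0.35). Lmod1 (leiomodin, an actin nucleator) and Mylk (myosin light chain kinase) differed by 0.46 and 0.41 in WT and by -0.75 and -0.21 in cKO, and none of these passed. Their interactions were -1.20 for Lmod1 (unadjusted p = 0.0254) and -0.62 for Mylk (unadjusted p = 0.0268), both with an adjusted p of 0.946. Tagln stayed between 0.223 and 2.02 CPM. The centred class score of smooth muscle was -0.25 in WT TAC replicate 1 against 0.36 to 0.87 in the other 3. It was 0.469 and 0.468 in cKO sham replicates 1 and 4 against -0.617 and -0.580 in replicates 2 and 3.

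Between genotypes, 0 of the 36 genes passed under sham (edgeR), beside 1.17% of all genes (0.618% higher and 0.552% lower). At an unadjusted p under 0.05 there were 9 of 36, beside 2284 of 15206 genes. Under TAC, 0 passed (edgeR), beside 1.78% of all genes (0.598% higher and 1.18% lower), with 5 unadjusted beside 2643 of all genes. For the difference between the TAC responses 0 passed (5 unadjusted), beside 0% of all genes (715 unadjusted). The DESeq2 Wald test and limma voom also called 0 in each of the 3 comparisons. Leaving out single libraries brought at most 1 lower gene past the threshold: Emcn without WT sham replicate 2 or Mcam without cKO sham replicate 2 under sham, and Smtn without cKO TAC replicate 3 under TAC. These genotype comparisons share their sham and TAC libraries with the comparisons above. Under sham, all 4 cKO libraries lay above all 4 WT libraries for Robo4, Fabp4, Car4 and Cspg4 (11.1% of the 36, beside 4% of all genes) and in none did they lie below (beside 3.59%). Under TAC they lay below for Mmrn2, Nos3 and Mcam (8.33%, beside 5.12%) and in none above (beside 4.89%).

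All 5 members of the capillary class had a higher estimate in cKO than in WT under both operations, with medians of 0.34 under sham and 0.20 under TAC. The 17 further capillary genes were mixed, with 8 higher and 9 lower estimates under each operation and medians of -0.13 under sham and -0.035 under TAC. Without cKO TAC replicate 1 the TAC median of the 5 genes was 0.024. Car4 had the largest sham difference, with 16.5, 21.1, 14.4 and 21.9 CPM in WT sham and 26.0, 24.9, 32.3 and 31.4 in cKO sham. No libraries overlapped, and the difference was 0.63 ± 0.21 (interval 0.18 to 1.08, edgeR adjusted p = 0.160). Fabp4 gave 502, 467, 430 and 437 CPM in WT sham and 545, 664, 503 and 608 in cKO sham, a difference of 0.34 (interval -0.02 to 0.70, adjusted p = 0.370). Aqp1 differed by 0.36 (adjusted p = 0.332), Gpihbp1 by 0.29 (adjusted p = 0.510) and Rgcc by 0.20 (adjusted p = 0.824) under sham.

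The smooth muscle class went the other way under TAC, where all 6 members had a lower estimate in cKO than in WT and the median was -0.51. Myh11 differed by -0.90 (interval -1.77 to -0.02, edgeR adjusted p = 0.278) and Smtn by -0.42 (interval -0.73 to -0.12, adjusted p = 0.133). Without cKO TAC replicate 3 the Smtn difference was -0.55 and passed (adjusted p = 0.0333). Leaving out both WT libraries rich in atrial transcripts moved the class median to -0.31. Identity and junction genes and pericyte genes had medians close to 0: 0.044 and 0.013 under sham, and -0.077 and 0.043 under TAC. Yet under TAC 14 of 15 identity and junction genes had a lower estimate in cKO than in WT. So had 16 of 21 further endothelial genes. Under sham 6 of 15 and 12 of 21 were lower. The identity and junction median under TAC turned to 0.019 with library totals only. The pericyte value under sham turned to -0.022 without WT sham replicate 2 and to -0.032 without WT sham replicate 3.

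**Figure D5:**
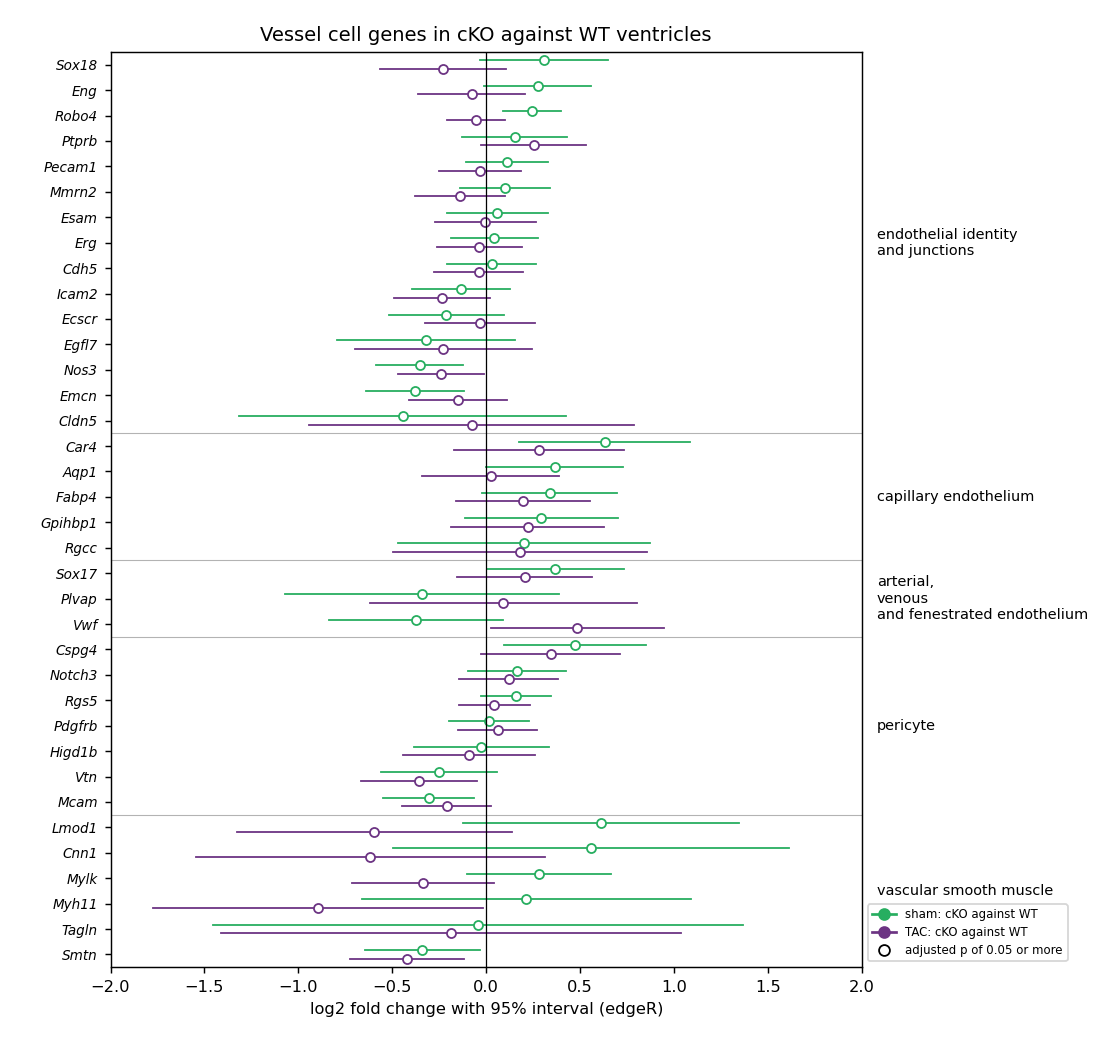
Log2 fold change of cKO against WT for each of the 36 tested genes under sham (green) and TAC (purple), with 95% intervals from edgeR over 4 libraries a group. All points are open because none had an adjusted p under 0.05. The 5 capillary genes lie right of 0 under both operations. Under TAC the smooth muscle genes lie left of 0, as do 14 of 15 identity and junction genes by smaller amounts at the median.

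A broader set of 96 genes of the same vessel cells was counted in the same way. With TAC, 18 of 96 rose and 3 fell in WT, beside 9.7% and 6.14% of all genes. In cKO 17 rose and 10 fell, beside 14.2% and 12.4% of all genes. Cd34, a surface sialomucin of endothelial and progenitor cells, rose by 0.84 in WT and 0.87 in cKO (edgeR adjusted p = 0.000125 and 6.07e-05). Col4a1, a basement membrane collagen that fibroblasts also make, rose by 1.18 and 1.20 (adjusted p = 0.000242 and 0.000147), and Col4a2 rose by 0.96 in WT (adjusted p = 0.000506). Unc5b, a netrin receptor of tip cells, was 2.32-fold higher in cKO (adjusted p = 2.83e-05). Among the genes that fell in WT were Prox1, a lymphatic factor also present in cardiomyocytes, by 0.85 (log2, adjusted p = 0.00083), Cd36, a fatty acid transporter, by 0.36 (adjusted p = 0.0309), and Pln, a calcium pump inhibitor, by 0.51 (adjusted p = 0.0462). In cKO the lowest adjusted p-values among falling genes were those of Pln (-0.86, adjusted p = 0.0013), Art3 (-0.71, adjusted p = 0.00206) and Abcc9 (-0.70, adjusted p = 0.00279). Abcc9, a potassium channel subunit, and Pln are also cardiomyocyte genes.

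Of 14 further pericyte genes, none rose in either genotype, none fell in WT and 5 fell in cKO (edgeR, 5 of 14 in WT and 7 in cKO at an unadjusted p under 0.05), beside the same shares of all genes. Their medians were -0.25 in WT and -0.20 in cKO, where those of the 7 listed pericyte genes were 0.29 and 0.24, and the difference between these lists was not tested. Of 17 further smooth muscle genes, 3 rose and 1 fell in each genotype. Of 17 further capillary genes, 5 rose and 1 fell in WT and 6 rose and 3 fell in cKO. For both of these lists the shares over all genes were 9.7% higher and 6.14% lower in WT, and 14.2% and 12.4% in cKO. Between genotypes 0 of 96 passed under sham (edgeR, 17 unadjusted), beside 1.17% of all genes (2284 of 15206 unadjusted). Under TAC Des, the muscle filament desmin that cardiomyocytes also make, was higher in cKO by 0.64 (edgeR adjusted p = 0.0346). Among all genes 0.598% were called higher in that comparison. The interaction called 0 of 96 (edgeR, 6 unadjusted), beside 0% of all genes (715 of 15206 unadjusted).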

How the data were processed

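Bulk RNA sequencing of 16 left ventricles gave 1 deposited table of raw counts per gene, with no normalization by the authors. The build GRCm39 and the tools featureCounts 2.0.6, HISAT2 2.0.5, SAMtools 1.21, fastp 0.22.0 and FastQC are listed in the submitters' processing notes. Strandedness, annotation release and the treatment of multiply mapping reads are not given in the sources used here. Groups came from the genotype and treatment labels.

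Gene names, exon lengths and exon overlaps came from GENCODE M21 on GRCm38, which paired 51880 of 57186 IDs with a symbol, and promoter windows from RefSeq on GRCm38.p6. Promoters were read as the 250 bases before each start, which leaves out the bases transcribed from that start. Egfl7 and Erg have several starts, and their windows before later starts lie downstream of the first one. The authors' build differs, so no coordinates of the counted genes are given.

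The analysis used edgeR 4.0.16 under R 4.3.3: filterByExpr (15206 genes kept), TMM factors and 1 robust quasi-likelihood model over all 16 libraries, with 12 residual degrees of freedom and a biological coefficient of variation of 16.5%. Benjamini-Hochberg adjustment covered all tested genes in each comparison, with a threshold of 0.05. SE and 95% intervals are on the log2 scale. CPM were scaled with TMM factors; the centred class scores used log2 CPM with a prior count of 2. The model was tested on simulated data. No 2 replicates agreed within sampling noise.

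The members and lists were chosen with earlier results of these data known. Every member is accounted for; those past the threshold in any comparison have their values by library. From the further vessel genes, up to 3 per direction and comparison with the smallest adjusted p are named. A gene named by this rule is not reported here. Alternatives were DESeq2 1.42.0 size factors and its Wald test, library totals only, no filter, at least 1 CPM in 4 libraries, limma 3.58.1 voom, the compared groups alone, a replicate block, no mitochondrially encoded genes, no WT libraries rich in atrial transcripts, and leaving out each library in turn.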

Additional observations from a re-analysis of the deposited data

Results flagged for a closer look

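In 148 sets of 4 libraries (each gene in each group), 11 held a library whose gap to its nearest neighbour was over 0.829 of the whole range. Chance flags about 1 in 20 such sets. WT sham replicate 1 was high for 4 genes: Egfl7 measured 219 CPM against 92.3 to 112 in the other 3 libraries. Icam2 measured 29.9 against 19.9 to 21.4, Ecscr 20.1 against 12.9 to 13.4, and Vtn 35.7 against 23.3 to 25. This library also had the highest erythrocyte sum, 1250 CPM.

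In cKO TAC replicate 1, Vwf measured 135 CPM against 71.4 to 81.7 in the other 3, and Plvap 30.2 against 11.7 to 13.6. Plvap was also high in WT sham replicate 3, at 23.4 against 11.3 to 12.7. Rgs5 was high in WT sham replicate 4, at 481 against 417 to 419, and in WT TAC replicate 3, at 523 against 428 to 443. Pecam1 was low in cKO sham replicate 3, at 142 against 197 to 206, and Emcn in cKO sham replicate 4, at 27.6 against 32.2 to 33.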

How the results depend on the processing

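Of 25 calls of members, 14 held under every alternative run and none changed direction; of 155 values that were not called, 145 stayed so. With TAC in WT, the count of lower members went from 1 to 0 with library totals only, limma voom, the compared groups alone and the replicate block. Leaving out 1 library each time gave 7 to 13 higher and 0 to 1 lower members in WT, and 7 to 10 higher and 1 to 3 lower in cKO. The 7 in WT came without WT TAC replicate 1. With library totals only, the cKO count of lower members went from 2 to 0, and the median of all genes moved from -0.015 to 0.11 in WT and from 0.0034 to 0.20 in cKO. In cKO against WT, leaving out 1 library gave 0 to 1 lower members under sham (Emcn without WT sham replicate 2, Mcam without cKO sham replicate 2) and 0 to 1 under TAC (Smtn without cKO TAC replicate 3). The causes were not tested. A fit of the compared groups alone was not run for the interaction, which uses all groups.

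Whether same-numbered replicates shared more than a number is not given in the labels. Their deviations from group means correlated from -0.160 to 0.229 over 24 pairs, with 4 of them over 0.1. Replicates of different number and group gave -0.281 to 0.239 over 72 pairs, with 13 over 0.1. These correlations cannot exclude a shared batch. With the replicate block 12 members were higher and 0 lower in WT, and 9 higher and 2 lower in cKO.

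Over all genes, library totals only gave 432 rather than 934 lower genes in WT, and 4013 rather than 2154 higher and 877 rather than 1880 lower in cKO. The DESeq2 Wald test gave 266 rather than 94 higher and 280 rather than 84 lower genes for cKO against WT under sham, and 294 rather than 91 and 544 rather than 180 under TAC. It gave 3 rather than 0 lower genes for the interaction. No filter gave 135 lower under sham and 312 under TAC. Under TAC the lower genes were 118 with library totals only, 79 with the compared groups alone and 101 without the 2 WT libraries rich in atrial transcripts, which also gave 2 for the interaction. Leaving out 1 library gave 897 to 1526 higher and 337 to 1004 lower genes in WT, and 1273 to 2228 lower in cKO. For cKO against WT it gave 33 to 117 and 26 to 105 under sham, and 2 to 289 and 11 to 623 under TAC, with the lowest values without cKO sham replicate 4 and WT TAC replicate 2. Ackr1 and Tagln had at most 0.764 and 2.02 CPM, so their values rest on few counts.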
